A study of Mus musculus with 22 samples.

Results

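The nuclear genes for subunits of the oxidative phosphorylation complexes were followed across 22 arrays of mouse embryonic stem (ES) cells. Members were the genes whose symbol in the platform annotation named a subunit of NADH dehydrogenase (Nduf a, b, c, s and v genes), succinate dehydrogenase (Sdh), cytochrome bc1 (Uqcr), cytochrome c oxidase (Cox4 to Cox8) or ATP synthase (Atp5), on a probe set with 1 symbol. This gave 77 of the 18193 genes measured: 34 of complex I, 4 of complex II, 8 of complex III, 14 of complex IV and 17 of complex V. The complex was assigned from the symbol alone, so every Nduf gene, Ndufa4 among them, is counted in complex I. Where a gene had several probe sets, the brightest on average stood for it. Another 9 probe sets that carry a member's symbol together with a second symbol were not used, and the subunits encoded by mitochondrial DNA were represented by 0 genes.

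The cells were of the Rex1GFPd2 mouse ES line, which carries a green fluorescent protein reporter for the pluripotency gene Rex1 (Zfp42). All groups grew in serum-free N2B27 medium with PD0325901 (PD), which blocks the kinase MEK. Medium called 2i also holds CHIR99021 (CHIR), which blocks the kinase GSK3. The 2i control arm had 7 arrays, of cells with control siRNA 1 (4 arrays) or control siRNA 2 (3 arrays) that stayed in 2i. The PD-only control arm had 7 arrays with the same siRNAs (4 and 3 arrays), and these cells were moved to medium without CHIR 24 hours after transfection. The PD-only YAP/TAZ siRNA arm had 8 arrays, 4 for each of the siYAP/TAZ reagents 1 and 2, in the medium of the PD-only control arm. RNA was taken 72 hours after transfection in all arms. All arms were transfected, all belong to 1 cell line, and no array of YAP/TAZ siRNA cells in 2i was analysed here.

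Oxidative phosphorylation couples the oxidation of NADH and succinate to the synthesis of ATP. Complexes I and II pass electrons to ubiquinone, complex III passes them to cytochrome c, complex IV reduces oxygen, and ATP synthase (complex V) uses the resulting proton gradient. Most subunits are encoded in the nucleus, and several subunits of complex IV exist as a widely expressed form and a form largely restricted to heart and skeletal muscle or to testis. ES cells rely on both glycolysis and respiration, and the balance shifts between pluripotent states. YAP (Yap1) and TAZ (Wwtr1) are transcriptional coactivators of the Hippo pathway.

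Values are on the log2 scale throughout, so a difference of 1 is a doubling of the signal. A gene counts as changed where its p from limma, adjusted by Benjamini-Hochberg over all 18193 genes, is under 0.05; adjusted p below means this value. The siRNAs lowered their targets: Yap1 was 11.04 ± 0.03 (SD, n = 7) in PD-only control and 9.77 ± 0.08 (n = 8) with YAP/TAZ siRNA, and Wwtr1 was 10.28 ± 0.03 and 9.25 ± 0.08. Both genes were also lower in 2i control than in PD-only control, by less. The differences were -0.15 ± 0.03 (SE, adjusted p = 0.0005452) for Yap1 and -0.25 ± 0.03 (adjusted p = 6.259e-07) for Wwtr1. Within arms the lowest correlation between arrays was 0.998. The RNA quality measure of the array, Actb 3′ minus 5′ signal, was 0.966 ± 0.104 in 2i control, 0.717 ± 0.0355 in PD-only control and 0.975 ± 0.0616 with YAP/TAZ siRNA. It was higher than in PD-only control in both other arms (exact permutation tests, adjusted p = 0.001049 and 0.0006993 over 9 tests). PD-only control, at 0.66 to 0.75, did not overlap 2i control (0.87 to 1.19) or YAP/TAZ siRNA (0.88 to 1.07). Arm and RNA quality therefore cannot be fully told apart in the comparisons with PD-only control. A call lost with this measure as a covariate cannot be assigned to either. With the Actb measure as a covariate 33 members rose and 6 fell in 2i, against 22.4% of all genes higher and 20.4% lower. With YAP/TAZ siRNA and the same covariate 52 rose and 1 fell, against 24.7% and 20.4% of all genes. Gapdh 3′ minus 5′ was also higher in both (-0.01 and -0.02 against -0.07; adjusted p = 0.001049 and 0.002797 by the same exact tests). The mean of the poly-A spikes was 8.96 in 2i control, above 8.52 in PD-only control and 8.43 with YAP/TAZ siRNA (adjusted p = 0.001049 and 0.0006993, exact tests). The part of the Gapdh and spike measures in the results was not tested. Markers of other cell types also moved with the arms. The log2 of the summed signal of 8 fibroblast markers was 10.83 to 10.96 in PD-only control, 7.75 to 8.03 in 2i control and 7.97 to 8.14 with YAP/TAZ siRNA. Of these, 7 were lower in 2i and 6 with YAP/TAZ siRNA. The 8 heart and muscle markers summed to 11.23 to 11.37, 8.06 to 8.21 and 8.11 to 8.33 in the same order, with 4 lower and 1 higher in 2i and 4 lower and 2 higher with YAP/TAZ siRNA. Trophoblast (10.80 to 11.02, 9.65 to 9.74, 10.46 to 10.71), primitive endoderm (8.92 to 9.08, 7.79 to 7.94, 7.75 to 7.97) and neural markers (9.26 to 9.34, 8.43 to 8.64, 9.40 to 9.52) had 5, 4 and 4 members lower and 1, 0 and 1 higher in 2i, and 4, 3 and 2 lower and 2, 0 and 2 higher with YAP/TAZ siRNA. The 7 ES cell markers, Pou5f1 and Nanog among them, summed to 15.82 to 15.85, 16.02 to 16.09 and 15.90 to 15.95. Of these, 5 were higher and 2 lower in 2i, and 3 were higher and 2 lower with YAP/TAZ siRNA. Of all genes 31.3% were higher and 26.7% lower in 2i, and 35.5% and 26.3% with YAP/TAZ siRNA. The share lower with YAP/TAZ siRNA was 75% of fibroblast markers and 50% of trophoblast and of heart and muscle markers. It was 37.5% of primitive endoderm, 33.3% of neural and 28.6% of ES cell markers, nearer to that of all genes. These arrays give no zero, so no marker can be read as absent. The part of these cell types in the results was not tested, and in bulk RNA fewer cells of a type and less RNA per cell cannot be told apart.

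With YAP/TAZ siRNA, most oxidative phosphorylation genes were higher than in PD-only control, by a small amount. Of 77 members, 66 rose, 3 fell and 8 did not pass the test, against 35.5% of all genes higher and 26.3% lower. The median member was higher by 0.22, against 0.06 over all genes. Since most members are bright, the 67 with a mean of at least 10 were also read against all 2625 genes at that level: 56 of the 67 rose, against 49.0% of the bright genes. At least 0.25 higher and past the test were 32 members, against 17.8% of all genes. All 66 rises and all 3 falls had the same sign with each of the siYAP/TAZ reagents. The calls rest on the average of both reagents against the same control arrays, so this agreement is partly built in. In a direct test of reagent 1 against reagent 2 no gene of 18193 passed the adjusted p in limma. At an unadjusted p under 0.05 there were 649 genes and 0 members.

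In 2i, the same genes were also more often higher than lower, with smaller differences. Of 77 members, 44 rose, 11 fell and 22 did not pass the test, against 31.3% of all genes higher and 26.7% lower in 2i control than in PD-only control. The median member was higher by 0.10, against 0.04 over all genes. Of the 67 bright members 38 rose, against 43.3% of bright genes. At least 0.25 higher were 16 members, against 16.3% of all genes, so that the share of larger rises, 16 of 77, was near the background. Higher members made up 80% of the 55 called, and 95.6% of those called after centring each array on its median, which moved the median of all genes from 0.04 to 0.16. Centring also moved the shares of all genes, from 31.3% higher and 26.7% lower to 57.5% and 19%. Both comparisons use the PD-only control arrays, so their values are given side by side and are not independent. All 44 rises and 11 falls had the same sign with both control siRNAs, which is likely for genes called on the average of both. Whether the difference in 2i itself differed between the control siRNAs was tested in limma. No gene of 18193 passed (949 genes and 2 members at an unadjusted p under 0.05).

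Set against 2i control directly, the YAP/TAZ siRNA arm had 47 members higher and 5 lower, with 25 not called, against 25.5% of all genes higher and 22.8% lower. The median was 0.08 for the members and 0.01 for all genes. Of the bright members 43 of 67 were higher, against 40.3% of bright genes, and 13 members were at least 0.25 higher, against 12.0% of all genes. The members lower with YAP/TAZ siRNA than in 2i were all of complex I: Ndufa12, Ndufb9, Ndufa7, Ndufb11 and Ndufb8.

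**Figure D1:**
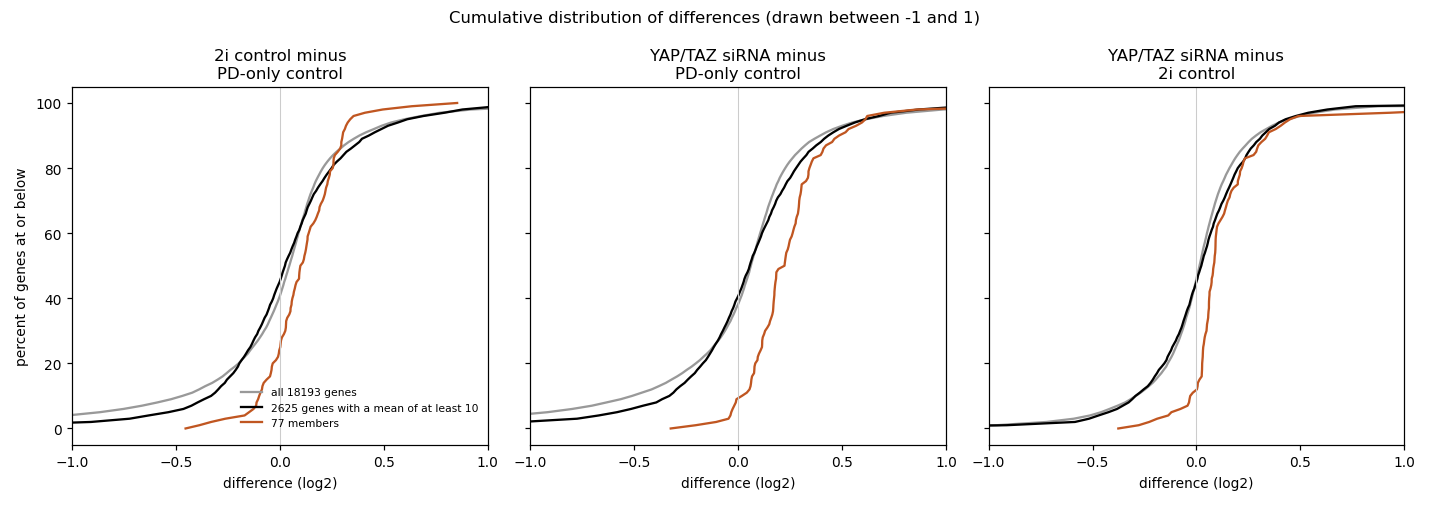
Cumulative distribution of the log2 difference (horizontal axis, drawn from -1 to 1) over all 18193 genes, the 2625 genes with a mean of at least 10 and the 77 members, as percent of genes at or below each value (vertical axis), for 3 comparisons. The line of the members lies to the right of both others through its middle in each panel, with medians of 0.10, 0.22 and 0.08.

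The shift was seen in each array. The deviation of each gene from its PD-only control mean was taken, and its median over the 77 members lay between 0.19 and 0.24 in the 8 YAP/TAZ siRNA arrays, between 0.09 and 0.12 in the 7 arrays of 2i control, and between -0.02 and 0.01 in the 7 arrays of PD-only control. The arms did not overlap. Over all genes the same median was 0.03 to 0.07, 0.03 to 0.05 and -0.02 to 0.01. By complex the median deviation with YAP/TAZ siRNA was lowest for complex I, at 0.15 to 0.21, and for complex II it overlapped that in 2i (0.21 to 0.28 against 0.17 to 0.23).

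**Figure D2:**
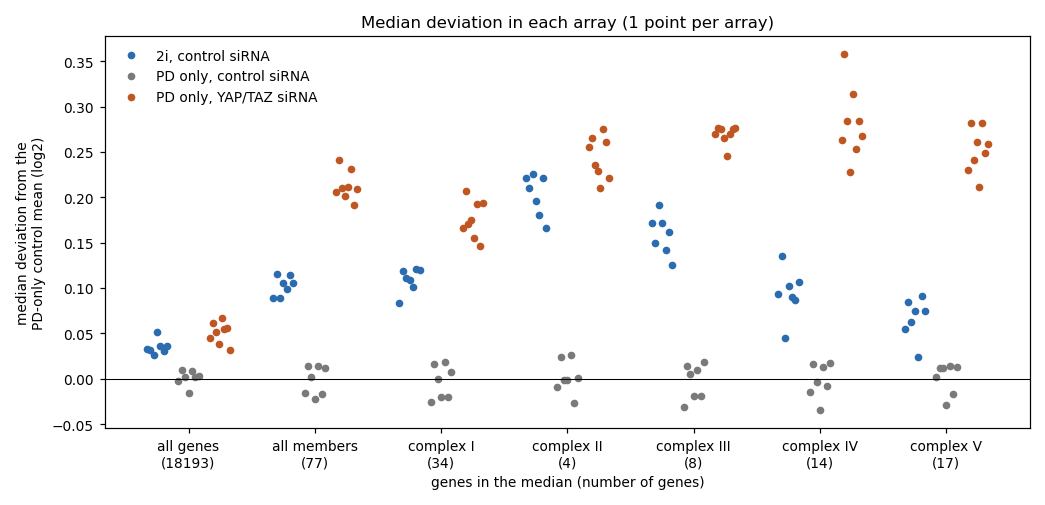
Median over genes of the deviation from the gene's PD-only control mean (vertical axis, log2), 1 point per array, for all genes, all members and each complex (horizontal axis). In all 77 members the YAP/TAZ siRNA arrays sit at 0.19 to 0.24 and the 2i control arrays at 0.09 to 0.12, while all genes reach at most 0.07.

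In complex I, which takes electrons from NADH, 26 of 34 members rose and 3 fell with YAP/TAZ siRNA (median 0.18), while in 2i 21 rose and 5 fell (median 0.10). Of all genes 35.5% were higher and 26.3% lower with YAP/TAZ siRNA, and 31.3% and 26.7% in 2i. These shares also stand beside the counts of the complexes below. Of the 6 members that are core subunits, those also present in bacteria, 5 rose with YAP/TAZ siRNA and 4 in 2i. The 28 other Nduf members, Ndufa4 among them, were counted as accessory subunits. Of these, 21 rose and 3 fell with YAP/TAZ siRNA, and 17 rose and 5 fell in 2i.

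Ndufs8, a core subunit that holds iron-sulphur clusters, was 11.60, 11.64 and 11.70 (lowest, median, highest) in PD-only control, 11.93, 11.97 and 12.05 in 2i control, and 12.06, 12.19 and 12.26 with YAP/TAZ siRNA. The arms did not overlap, with PD-only control lowest. The gene was higher by 0.33 ± 0.03 (SE) in 2i (adjusted p = 1.25e-08) and by 0.53 ± 0.03 with YAP/TAZ siRNA (adjusted p = 3.479e-12). Its probe sets, 6 in all, each gave a rise in both comparisons. Ndufs7, another core subunit, was higher by 0.13 ± 0.03 in 2i and 0.36 ± 0.03 with YAP/TAZ siRNA. Of the accessory subunits, Ndufa5 was higher by 0.13 ± 0.03 and 0.51 ± 0.03 and Ndufa6 by 0.26 ± 0.03 and 0.46 ± 0.03.

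Ndufb4 was read only from a dim probe set, at 3.64 to 3.95 in PD-only control, 3.78 to 4.59 in 2i control and 4.19 to 4.63 with YAP/TAZ siRNA. Its differences of 0.35 ± 0.10 in 2i and 0.58 ± 0.10 with YAP/TAZ siRNA passed the test, and neither did with the Actb measure as a covariate (0.09 and 0.31). Background compresses differences of so dim a probe set by an unknown amount. Among the 9 probe sets not used, 2 bright ones carry this symbol together with its copies Ndufb4b and Ndufb4c. They gave 0.46 ± 0.03 and 0.47 ± 0.03 in 2i and 0.67 ± 0.03 and 0.65 ± 0.02 with YAP/TAZ siRNA, all called higher, and cannot be assigned to 1 of these genes. Another unused bright probe set, of Ndufa11 and Ndufa11b, was lower in 2i (-0.35 ± 0.03). With YAP/TAZ siRNA that probe set was not called (-0.04 ± 0.03). The bright one of Ndufs5 and Ndufs5-ps gave 0.01 ± 0.03 in 2i (not called) and 0.27 ± 0.02 with YAP/TAZ siRNA. For Ndufs6 and Ndufs6b it was higher in both (0.13 ± 0.03 and 0.17 ± 0.03).

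Ndufa12 and Ndufb9, accessory subunits, were called in 2i and not with YAP/TAZ siRNA. Ndufa12 was 12.25, 12.28 and 12.41 in 2i control, 11.79, 11.89 and 11.94 in PD-only control, and 11.89, 11.93 and 12.00 with YAP/TAZ siRNA, so 2i stood above both PD-only arms. It was higher in 2i by 0.43 ± 0.03 (adjusted p = 6.698e-11), gave 0.05 ± 0.03 with YAP/TAZ siRNA (adjusted p = 0.1096), and was lower with YAP/TAZ siRNA than in 2i by 0.38 ± 0.03 (log2 difference -0.38). Without cross-hybridising probe sets another, dimmer probe set stood for Ndufa12, at 0.12 in 2i (adjusted p = 0.2894). Its other bright probe sets gave 0.11 ± 0.02 (adjusted p = 0.0007406) and 0.08 ± 0.03 (adjusted p = 0.04207) with YAP/TAZ siRNA, both called higher in a limma fit over all probe sets, so its lack of a call there depends on the probe set. Ndufb9 rose in 2i (0.24 ± 0.02) and gave -0.01 ± 0.02 with YAP/TAZ siRNA (adjusted p = 0.7813).

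The members that fell with YAP/TAZ siRNA were Ndufa7, Ndufa8 and Ndufa1, all accessory subunits of complex I. The fall of Ndufa1 was small (-0.05 ± 0.02, adjusted p = 0.03263). Its arms overlapped, at 12.92 to 12.99 in PD-only control and 12.89 to 12.94 with YAP/TAZ siRNA. It was not called in a limma fit over all probe sets (adjusted p = 0.05363). Ndufa7 was 12.53, 12.56 and 12.61 in PD-only control, 12.39, 12.46 and 12.50 in 2i control and 12.20, 12.23 and 12.30 with YAP/TAZ siRNA, with no overlap between arms. It fell by 0.33 ± 0.02 (adjusted p = 2.224e-11) with YAP/TAZ siRNA, in all 5 of its probe sets, and by 0.12 ± 0.02 in 2i, where centring gave 0.0046 and the Actb covariate -0.06, neither called. Ndufa8 had its lowest values in 2i control (10.23, 10.36, 10.44), its highest in PD-only control (10.61, 10.65, 10.68), and 10.44, 10.48 and 10.54 with YAP/TAZ siRNA. It fell by 0.30 ± 0.03 in 2i (adjusted p = 9.596e-09) and by 0.17 ± 0.03 with YAP/TAZ siRNA (adjusted p = 1.774e-05), the latter not called after centring or with the Actb covariate (-0.03 and -0.08). Ndufa2 was lower in 2i, at 11.78 to 11.94 against 11.97 to 12.10 in PD-only control (-0.17 ± 0.03, adjusted p = 2.909e-05; -0.05 and not called after centring), and overlapped PD-only control with YAP/TAZ siRNA (11.93 to 12.06).

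**Figure D3:**
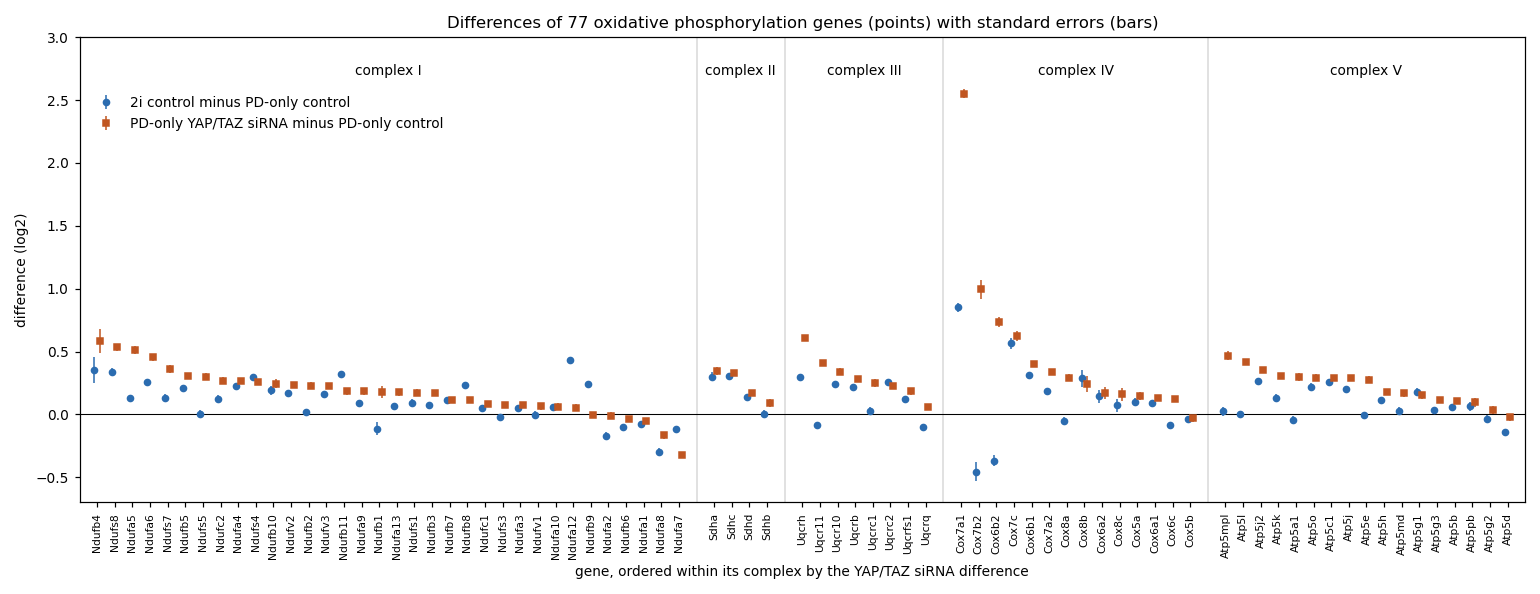
Log2 difference from PD-only control (vertical axis) of each of the 77 genes (horizontal axis, grouped by complex and ordered by the YAP/TAZ siRNA difference), for 2i control (circles) and YAP/TAZ siRNA (squares), with standard errors as bars. Cox7a1 stands highest at 0.85 and 2.55, most other genes lie between 0 and 0.5, and Cox7b2 and Cox6b2 lie below 0 in 2i and above 0 with YAP/TAZ siRNA.

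Complex II, which also belongs to the citric acid cycle, has 4 subunits, and all were measured. All 4 rose with YAP/TAZ siRNA (median 0.25) and 3 rose in 2i (median 0.22). Sdhc, a membrane anchor, was 9.56, 9.62 and 9.64 in PD-only control, 9.88, 9.89 and 9.96 in 2i control and 9.90, 9.93 and 9.97 with YAP/TAZ siRNA. PD-only control stood below both other arms, which overlapped each other. The differences were 0.30 ± 0.02 in 2i (adjusted p = 5.779e-10) and 0.33 ± 0.02 with YAP/TAZ siRNA (adjusted p = 5.973e-11), and 0.03 ± 0.02 between those arms (adjusted p = 0.2982). Sdha, the subunit that oxidises succinate, was 10.99 to 11.04 in PD-only control, 11.18 to 11.44 in 2i control and 11.29 to 11.44 with YAP/TAZ siRNA. It was higher by 0.30 ± 0.04 and 0.34 ± 0.03, but its second bright probe set gave 0.15 ± 0.03 in 2i and -0.13 ± 0.03 with YAP/TAZ siRNA (adjusted p = 0.0005259), so the direction of Sdha with YAP/TAZ siRNA depends on the probe set. Sdhd, the other anchor, was 0.14 ± 0.02 and 0.17 ± 0.02 higher, the first not called with the Actb covariate (0.09). Sdhb, the iron-sulphur subunit, gave 0.00 ± 0.03 in 2i (adjusted p = 0.9845) and rose by 0.09 ± 0.03 with YAP/TAZ siRNA (adjusted p = 0.01244; 0.06 and not called with the Actb covariate), with arms that overlapped.

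In complex III all 8 members rose with YAP/TAZ siRNA (median 0.26), and in 2i 5 rose and 2 fell (median 0.17). The share lower in 2i, 25%, was near the 26.7% of all genes. Uqcrh, the hinge protein at the site of cytochrome c, was 12.22, 12.26 and 12.33 in PD-only control, 12.51, 12.56 and 12.63 in 2i control and 12.82, 12.88 and 12.95 with YAP/TAZ siRNA. Its arms were fully apart, in that order. It was higher by 0.29 ± 0.03 in 2i (adjusted p = 2.02e-09) and by 0.61 ± 0.02 with YAP/TAZ siRNA (adjusted p = 6.694e-15), a 1.53-fold signal. Uqcrc2, a core protein of the complex, was higher by 0.26 ± 0.03 and 0.23 ± 0.03, at 12.02 to 12.16 in PD-only control, 12.23 to 12.40 in 2i control and 12.25 to 12.33 with YAP/TAZ siRNA.

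The small subunit Uqcr11 went the other way in 2i. It was 11.45, 11.52 and 11.57 in PD-only control, 11.38, 11.42 and 11.50 in 2i control, and 11.87, 11.92 and 11.97 with YAP/TAZ siRNA. Only the YAP/TAZ siRNA arm stood apart from the others. The rise was 0.41 ± 0.02 (adjusted p = 9.496e-12), and the difference in 2i was -0.09 ± 0.03 (adjusted p = 0.006124), which became 0.03 after centring and -0.04 with the Actb covariate, neither called. Uqcrq gave -0.10 ± 0.03 in 2i (adjusted p = 0.00152) and 0.06 ± 0.02 with YAP/TAZ siRNA (adjusted p = 0.04139). The first turned positive in 3 alternatives and another of its probe sets was called higher; the second lost its call without any of 10 single arrays and turned to 0.00 after cyclic loess.

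Complex IV, cytochrome c oxidase, held the largest differences among the 77. Of its 14 members 13 rose and 0 fell with YAP/TAZ siRNA (median 0.27), and in 2i 8 rose and 3 fell (median 0.09). The share lower in 2i was 21.4%, against 26.7% of all genes. The count of 0 is from limma at the adjusted p; at an unadjusted p under 0.05 it was also 0. Of the tissue-restricted forms all 6 (Cox6a2, Cox6b2, Cox7a1, Cox7b2, Cox8b and Cox8c) rose with YAP/TAZ siRNA, with differences of 0.16 to 2.55, as did 7 of the 8 other subunits. Cox7a1, Cox7b2 and Cox6b2 had the largest differences of the complex, while Cox8c, Cox6a2 and Cox8b lay below its median. Their means in PD-only control ran from 5.02 (Cox7b2) to 8.64 (Cox6b2).

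Cox7a1, the heart and skeletal muscle form of subunit VIIa, was 7.10, 7.21 and 7.31 in PD-only control. It was 7.99, 8.07 and 8.10 in 2i control and 9.62, 9.77 and 9.83 with YAP/TAZ siRNA. The arms were far apart, and the YAP/TAZ siRNA arm was above 2i control by more than 2i control was above PD-only control. The difference from PD-only control was 0.85 ± 0.04 in 2i (adjusted p = 3.465e-14) and 2.55 ± 0.04 with YAP/TAZ siRNA (adjusted p = 2.756e-22), or 5.85-fold. Between YAP/TAZ siRNA and 2i control it was 1.70 ± 0.04 (adjusted p = 2.71e-18). Of the 8 heart and muscle markers, 4 were lower and 2 higher with YAP/TAZ siRNA, against 26.3% and 35.5% of all genes. Actc1, cardiac actin, had the largest difference, -5.28 in 2i and -5.16 with YAP/TAZ siRNA. Cox7a2, the widely expressed form, was 13.01, 13.04 and 13.09 in PD-only control, 13.19, 13.23 and 13.28 in 2i control and 13.34, 13.39 and 13.43 with YAP/TAZ siRNA, with differences of 0.19 ± 0.02 and 0.34 ± 0.02.

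The other muscle forms did not share this size of change. Cox6a2 was 6.17 to 6.51 in PD-only control, 6.36 to 6.66 in 2i control and 6.48 to 6.61 with YAP/TAZ siRNA, with differences of 0.15 ± 0.05 and 0.17 ± 0.05. The first was not called without replicate A of PD-only control siRNA 2 (0.12, adjusted p = 0.07085). Its widely expressed partner Cox6a1 was higher by 0.09 ± 0.02 and 0.13 ± 0.02, the first not called with the Actb covariate (0.09). Cox8b was 5.37 to 5.61 in PD-only control, 5.54 to 6.10 in 2i control and 5.51 to 5.87 with YAP/TAZ siRNA (0.29 ± 0.06 and 0.24 ± 0.06). Its difference in 2i was 0.115 with control siRNA 1 and 0.457 with control siRNA 2. This gap of 0.34 was the largest of its kind among the members and did not pass the test. Cox8a, the widely expressed form, gave -0.05 ± 0.03 in 2i (adjusted p = 0.1419) and rose by 0.29 ± 0.03 with YAP/TAZ siRNA (adjusted p = 7.541e-09).

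The testis forms Cox6b2 and Cox7b2 were lower in 2i and higher with YAP/TAZ siRNA. Cox6b2 was 8.08, 8.31 and 8.36 in 2i control, 8.54, 8.65 and 8.72 in PD-only control and 9.26, 9.40 and 9.46 with YAP/TAZ siRNA, with no overlap. Its difference from PD-only control was -0.37 ± 0.04 in 2i (adjusted p = 1.727e-07) and 0.73 ± 0.04 with YAP/TAZ siRNA (adjusted p = 1.632e-12), and the YAP/TAZ siRNA arm was above 2i control by 1.10 ± 0.04. Cox6b1, the widely expressed form, had another order. It was 12.83, 12.85 and 12.88 in PD-only control, 13.10, 13.17 and 13.22 in 2i control and 13.24, 13.26 and 13.28 with YAP/TAZ siRNA, higher by 0.31 ± 0.02 and 0.40 ± 0.02.

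Cox7b2 was 4.22, 4.58 and 4.83 in 2i control, 4.88, 4.95 and 5.20 in PD-only control and 5.78, 6.05 and 6.16 with YAP/TAZ siRNA. The arms did not overlap, though 2i and PD-only control nearly met. The differences were -0.46 ± 0.08 in 2i (adjusted p = 3.594e-05; -0.29 and not called with the Actb covariate) and 1.00 ± 0.07 with YAP/TAZ siRNA (adjusted p = 2.689e-10). Cox8c, the testis form of subunit VIII, was 7.09 to 7.34, 7.16 to 7.46 and 7.28 to 7.57 in PD-only control, 2i control and YAP/TAZ siRNA. It gave 0.07 ± 0.05 in 2i (adjusted p = 0.2583) and 0.16 ± 0.05 with YAP/TAZ siRNA (adjusted p = 0.01082; not called with the Actb covariate or over the mean of its probe sets).

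**Figure D4:**
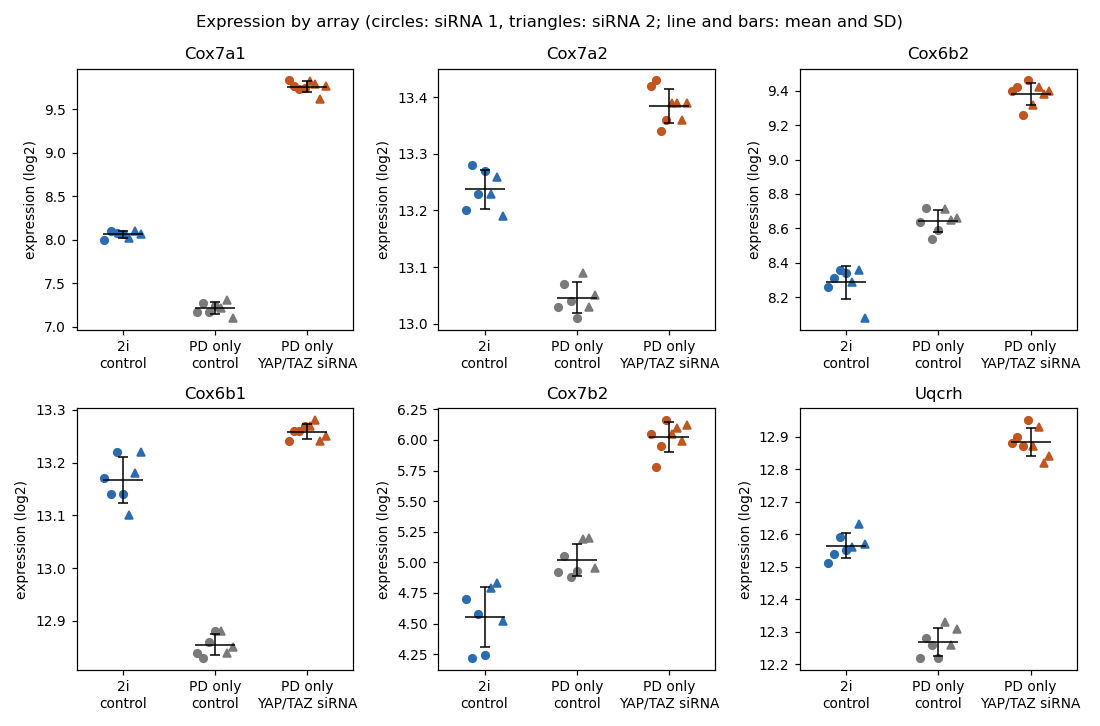
Expression (vertical axes, log2, each panel on its own scale) in each array of 2i control, PD-only control and YAP/TAZ siRNA (horizontal axes) for 6 genes; circles are siRNA 1 and triangles siRNA 2 of each kind, with mean and SD. Cox7a1 reaches 9.62 to 9.83 with YAP/TAZ siRNA, and Cox6b2 and Cox7b2 have 2i control lowest while Cox7a2, Cox6b1 and Uqcrh have PD-only control lowest.

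Of the other complex IV subunits, Cox7c had the largest differences. It was 7.13, 7.18 and 7.35 in PD-only control, 7.65, 7.79 and 7.86 in 2i control and 7.69, 7.86 and 7.89 with YAP/TAZ siRNA. It was higher by 0.56 ± 0.04 (adjusted p = 1.955e-10) and 0.62 ± 0.04 (adjusted p = 1.998e-11), while 2i control and YAP/TAZ siRNA overlapped and differed by 0.06 ± 0.04 (adjusted p = 0.2676). The probe set used for Cox7c, a cross-hybridising one, had a mean of only 7.62 over all arrays. Means of the other subunits outside the tissue forms ran from 12.32 (Cox8a) to 14.12 (Cox6a1). The second Cox7c probe set, with a mean of 6.12, gave 0.38 ± 0.06 and 0.71 ± 0.06. The rank of Cox7c among these subunits thus rests on dim probe sets. Cox5b, with means of 13.6 in each arm, was not called in any comparison: -0.04 ± 0.03 in 2i and -0.03 ± 0.02 with YAP/TAZ siRNA. In 2i some of its dimmer probe sets were called in opposite directions. Cox6c gave -0.08 ± 0.02 in 2i and 0.12 ± 0.02 with YAP/TAZ siRNA. Cox4i1 and Cox4i2, the forms of subunit IV whose longer symbols the rule does not match, gave 0.09 ± 0.03 and 0.11 ± 0.03 (Cox4i1, called in both) and 0.14 ± 0.07 and 0.15 ± 0.07 (Cox4i2, called in neither).

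In complex V, ATP synthase, 15 of 17 members rose and 0 fell with YAP/TAZ siRNA (median 0.28), against 35.5% and 26.3% of all genes. No member of it fell with YAP/TAZ siRNA at an unadjusted p under 0.05 in limma either. In 2i 7 rose and 1 fell (median 0.06), the lowest median of the complexes there. The share higher in 2i, 41.2%, was near the 43.3% of bright genes (31.3% of all genes), and the median was near the 0.04 of all genes. The share lower was 5.88%, against 26.7% of all genes. Of the 5 subunits of the catalytic head (Atp5a1, Atp5b, Atp5c1, Atp5d and Atp5e), 4 rose with YAP/TAZ siRNA and 1 in 2i. Of the 9 members outside the head and the c ring, all rose with YAP/TAZ siRNA and 5 in 2i.

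Atp5l and Atp5mpl, small proteins of the membrane part, rose with YAP/TAZ siRNA and were not called in 2i. Atp5l was 12.18, 12.23 and 12.26 in PD-only control, 12.19, 12.20 and 12.28 in 2i control and 12.60, 12.64 and 12.68 with YAP/TAZ siRNA. The control arms lay on each other, and the YAP/TAZ siRNA arm stood apart. The rise was 0.42 ± 0.02 (adjusted p = 9.878e-13), against 0.00 ± 0.02 in 2i (adjusted p = 0.9253), and the YAP/TAZ siRNA arm was above 2i control by 0.42 ± 0.02 (adjusted p = 3.169e-12). Atp5mpl was 11.56, 11.60 and 11.72 in PD-only control, 11.58, 11.62 and 11.82 in 2i control and 12.00, 12.10 and 12.14 with YAP/TAZ siRNA. Its differences were 0.03 ± 0.04 in 2i (adjusted p = 0.5484) and 0.47 ± 0.03 with YAP/TAZ siRNA (adjusted p = 2.227e-10).

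Atp5j2, subunit f of the membrane part, and Atp5c1, the rotating gamma subunit, were high in both other arms. Atp5j2 was 13.08 to 13.16 in PD-only control, 13.32 to 13.46 in 2i control and 13.46 to 13.51 with YAP/TAZ siRNA (0.27 ± 0.02 and 0.35 ± 0.02). Atp5c1 was 12.96 to 13.01, 13.20 to 13.28 and 13.21 to 13.31 in the same order (0.26 ± 0.02 and 0.29 ± 0.02), while its dim second probe set gave -0.11 with YAP/TAZ siRNA (not called). Atp5a1, the alpha subunit, gave -0.04 ± 0.03 in 2i and 0.30 ± 0.03 with YAP/TAZ siRNA. Atp5d, the delta subunit of the head, was the single member of complex V lower in 2i (-0.14 ± 0.03, adjusted p = 0.0003536; not called after centring or with the Actb covariate) and gave -0.02 ± 0.03 with YAP/TAZ siRNA.

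Subunit c, which forms the rotor ring, is made from 3 genes that differ in their import sequences. Atp5g1 was 12.18 to 12.26 in PD-only control, 12.33 to 12.50 in 2i control and 12.31 to 12.44 with YAP/TAZ siRNA, higher by 0.18 ± 0.03 and 0.15 ± 0.03. Atp5g3 gave 0.04 ± 0.02 in 2i (adjusted p = 0.1919) and 0.12 ± 0.02 with YAP/TAZ siRNA (adjusted p = 0.000108). Atp5g2 was called in neither, at -0.04 ± 0.03 and 0.03 ± 0.03. The genes of the ring thus differed in which arms set them apart, and all 3 differences with YAP/TAZ siRNA were below the median of complex V.

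The promoters of members were read to show what sequence the group shares. RefSeq promoters (GRCm38.p6, 250 bases before to 50 after the gene start) were given for 65 of the 77 members, 70 promoters in all. A search on both strands for GCGCANGCG, the site of the regulator NRF1, found it in 27.1% of member promoters and in 6.25% of all 32851 promoters of the same length. CCGGAAG, the site of ETS factors such as GABP, was in 24.3% against 8.86%, and AAGATGGC, that of YY1, in 12.9% against 2.75%. Any of these 3 was in 54.3% of member promoters against 16% of all; matches of different motifs may overlap. The median GC content was 58.5% in members and 52.7% in all promoters, which also bears on GC-rich motifs and was not adjusted for. TCAAGGTCA, the site of the oestrogen-related receptors, was in 2.86% against 0.423%, ACATTCC, that of the TEAD partners of YAP and TAZ, in 4.29% against 3.85%, and CTTTGAT, that of TCF factors, in 1.43% against 3.73%. The median difference with YAP/TAZ siRNA was 0.29 in the 18 genes with an NRF1 match and 0.18 in the 47 without. For ETS it was 0.28 and 0.23, and for YY1 0.18 and 0.23. A match is a description of the sequence and not a bound site.

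The 200 bases before the start of 7 members are shown 5′ to 3′ on the gene's strand. They set the tissue forms of complex IV with the largest differences beside some widely expressed subunits. Capitals mark matches to the 6 motifs. In the longer window above, 38 of the 70 member promoters held an NRF1, ETS or YY1 match and the others held none of these. The 7 were chosen, so their matches do not show a difference between tissue forms and widely expressed subunits. Cox7a1 (chr7:30183971-30184170, plus strand), Cox6b2 (chr7:4753095-4753294, minus strand) and Cox7b2 (chr5:71548206-71548405, minus strand) held none in this stretch. Cox6b1 (chr7:30626115-30626314, minus strand) held an ETS match at -28 to -22 from the start and Uqcrh (chr4:116075071-116075270, minus strand) one at -10 to -4. Cox6a1 (chr5:115348959-115349158, minus strand) held an ETS match at -16 to -10 and NRF1 matches at -117 to -109 and, on both strands, at -162 to -153. Sdha (chr13:74350241-74350440, minus strand) held 3 NRF1 matches, at -98 to -90, -55 to -47 and -10 to -2.
Cox7a1: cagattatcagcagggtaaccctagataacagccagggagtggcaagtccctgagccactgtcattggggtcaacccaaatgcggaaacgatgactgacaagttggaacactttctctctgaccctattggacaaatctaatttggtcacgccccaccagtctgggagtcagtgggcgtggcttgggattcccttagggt
Cox6b2: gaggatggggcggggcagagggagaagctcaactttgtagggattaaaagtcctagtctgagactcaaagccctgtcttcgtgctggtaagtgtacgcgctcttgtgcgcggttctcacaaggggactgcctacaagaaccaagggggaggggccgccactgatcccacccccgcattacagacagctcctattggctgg
Cox7b2: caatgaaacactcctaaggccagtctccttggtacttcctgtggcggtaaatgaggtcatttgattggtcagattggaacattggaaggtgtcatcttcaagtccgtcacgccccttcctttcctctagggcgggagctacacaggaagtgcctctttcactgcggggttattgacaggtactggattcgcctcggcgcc
Cox6b1: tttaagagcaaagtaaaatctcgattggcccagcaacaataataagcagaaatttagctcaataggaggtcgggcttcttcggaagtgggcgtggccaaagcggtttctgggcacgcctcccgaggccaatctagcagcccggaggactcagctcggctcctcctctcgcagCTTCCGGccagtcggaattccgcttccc
Cox6a1: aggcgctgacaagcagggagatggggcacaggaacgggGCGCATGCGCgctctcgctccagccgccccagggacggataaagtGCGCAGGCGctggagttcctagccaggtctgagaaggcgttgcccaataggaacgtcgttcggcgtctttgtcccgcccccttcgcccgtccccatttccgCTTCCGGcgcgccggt
Uqcrh: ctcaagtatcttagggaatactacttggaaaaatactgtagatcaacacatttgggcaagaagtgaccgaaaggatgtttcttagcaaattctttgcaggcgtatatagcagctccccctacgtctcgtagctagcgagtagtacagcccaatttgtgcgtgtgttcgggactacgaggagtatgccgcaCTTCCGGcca
Sdha: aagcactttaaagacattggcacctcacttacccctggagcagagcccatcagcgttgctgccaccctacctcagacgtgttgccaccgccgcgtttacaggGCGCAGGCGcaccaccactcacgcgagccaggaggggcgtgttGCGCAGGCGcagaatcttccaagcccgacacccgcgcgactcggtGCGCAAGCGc

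Genes of the complexes that the symbol rule leaves out were read next, together with Cycs, Cyct and Atpif1, which are not subunits of them. Of 9, 6 rose and 1 fell with YAP/TAZ siRNA (median 0.16), and 4 rose and 3 fell in 2i (median 0.09), against 35.5% and 26.3% of all genes and 31.3% and 26.7%. Cyct, the testis form of cytochrome c, was higher by 0.92 ± 0.04 in 2i and by 0.45 ± 0.04 with YAP/TAZ siRNA, so unlike Cox6b2 and Cox7b2 it was highest in 2i. Cycs, the somatic form, gave -0.09 ± 0.03 in 2i (adjusted p = 0.02539) and 0.02 ± 0.03 with YAP/TAZ siRNA (adjusted p = 0.5929). Cyc1, the cytochrome of complex III, was lower in 2i (-0.13 ± 0.02) and higher with YAP/TAZ siRNA (0.17 ± 0.02). Cox7a2l, which joins complexes III and IV, was higher by 0.24 ± 0.02 and 0.28 ± 0.02.

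Assembly factors build the complexes and are not part of them. Of 45, 30 rose and 8 fell with YAP/TAZ siRNA (median 0.18), 26 rose and 8 fell in 2i (median 0.11). The shares higher and lower were 66.7% and 17.8% with YAP/TAZ siRNA, against 35.5% and 26.3% of all genes, and 57.8% and 17.8% in 2i, against 31.3% and 26.7%. Between YAP/TAZ siRNA and 2i control 20 were higher and 15 lower, against 25.5% and 22.8%. Ndufaf4, an assembly factor of complex I, was higher by 0.74 ± 0.03 in 2i (adjusted p = 2.279e-15) and 0.86 ± 0.03 with YAP/TAZ siRNA (adjusted p = 8.158e-17). Tmem126b, of the same complex, was higher by 0.73 ± 0.08 and 0.81 ± 0.08. Coa7 and Coa6, of complex IV, were higher by 0.45 ± 0.04 and 0.20 ± 0.03 in 2i and by 0.93 ± 0.04 and 0.76 ± 0.02 with YAP/TAZ siRNA. Uqcc2, of complex III, was higher by 0.08 ± 0.03 and 0.51 ± 0.03. Among those that fell were Cox18, which inserts a subunit of complex IV into the membrane (-0.55 ± 0.03 in 2i and -0.29 ± 0.03 with YAP/TAZ siRNA), and Tmem70, of ATP synthase (-0.01 ± 0.03, not called, and -0.48 ± 0.03).

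Regulators of the nuclear genes and the factors that transcribe and copy mitochondrial DNA gave 19 of 22 higher and 2 lower with YAP/TAZ siRNA (median 0.22; all genes 35.5% and 26.3%), and 14 higher and 4 lower in 2i (median 0.20; all genes 31.3% and 26.7%). Esrrb, an oestrogen-related receptor and a pluripotency factor of ES cells, was higher by 1.03 ± 0.02 in 2i (adjusted p = 4.709e-19) and 0.64 ± 0.02 with YAP/TAZ siRNA (adjusted p = 5.602e-16). Tefm, an elongation factor for mitochondrial transcription, was higher by 0.75 ± 0.03 and 1.06 ± 0.03, and the coactivator Ppargc1b by 0.74 ± 0.03 and 0.84 ± 0.03. Polg, the mitochondrial DNA polymerase, was lower in both (-0.49 ± 0.03 and -0.52 ± 0.03). Nrf1 and Gabpb1, a subunit of GABP, were lower in 2i (-0.36 ± 0.03 and -0.29 ± 0.03) and higher with YAP/TAZ siRNA (0.29 ± 0.03 and 0.22 ± 0.03). Gabpa, the other GABP subunit, was higher in both (0.26 ± 0.03 and 0.33 ± 0.03).

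**Figure D5:**
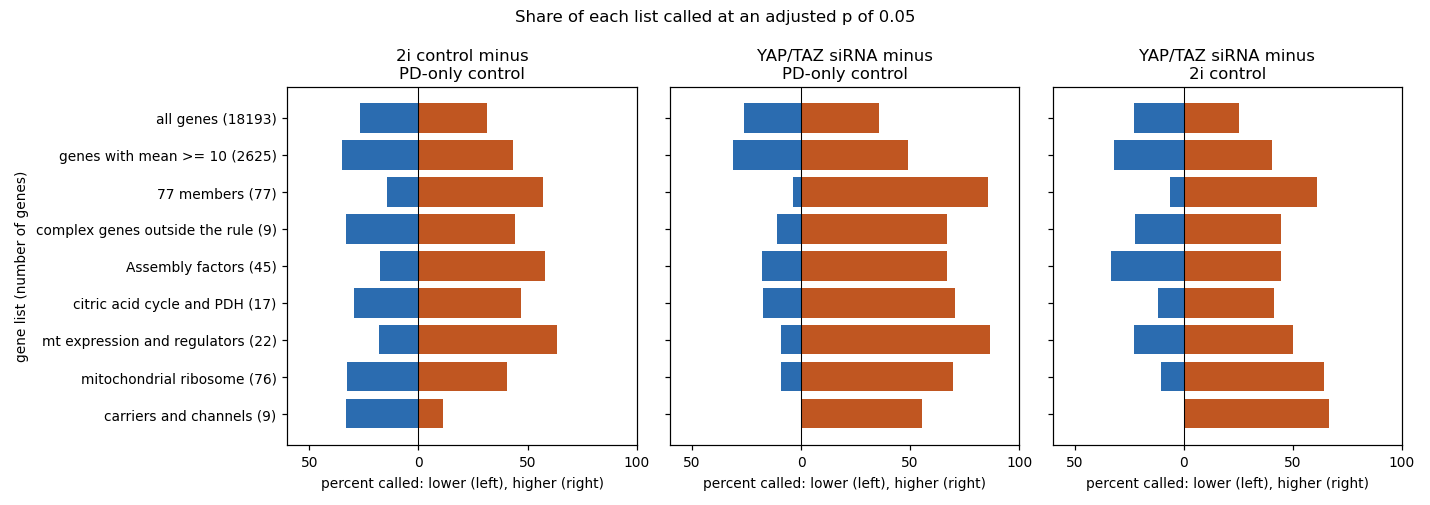
Percent of each gene list called higher (to the right) and lower (to the left) at an adjusted p of 0.05 (horizontal axes) in 3 comparisons, with all genes and genes with a mean of at least 10 on top (vertical axis, number of genes in brackets). With YAP/TAZ siRNA 85.7% of the 77 members were higher and 3.9% lower, against 35.5% and 26.3% of all genes.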

How the data were processed

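The authors deposited 1 table of log2 expression values per probe set for 22 Affymetrix mouse arrays, made with RMA per the submitters' processing notes. The log2 scale is taken from that tool's name and from the range, 2.09 to 14.91. Arrays share 1 distribution after RMA, so a change in total RNA per cell is not seen, differences of dim probe sets are compressed, and there is no detection call or depth. Their number limits the precision.

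Probe sets with 1 symbol in the platform annotation were used, 1 per gene (highest mean). A limma 3.58.1 fit in R 4.3.3 (lmFit and eBayes, 6 group means, 16 residual and 3.1 prior degrees of freedom) gave the differences of arms, each siRNA with equal weight, and standard errors. Adjustment was over all 18193 genes. The script was tested on simulated data. Labels call the arrays biological replicates, A to D; no shared culture day is given, and same-letter arrays did not deviate together (median correlation 0.00182 over 51 pairs), so no block was used. Array quality was compared with exact permutation tests, each considering both directions.

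Members and lists were chosen with earlier results of these data known. Values by array are given for up to 2 called members with the largest rise and up to 2 with the largest fall per complex, and for paralogues; of other lists up to 4 called genes per comparison. Any member could be named. Cycs was named after its values were seen, and Gabpa was also named outside the limit of 4 genes. Promoters are from RefSeq GRCm38.p6. Tables and figures were made with Python 3.11.15, pandas 2.3.3 and matplotlib 3.10.9.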

Additional observations from a re-analysis of the deposited data

Results flagged for a closer look

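Within groups of 4 arrays, 9 of 156 sets of values for named genes had 1 array far from the other 3; chance gives about 1 in 20. Values are rounded to 2 decimals, and most gaps are under 0.1. Sdhc was 9.96 in replicate A of control siRNA 1 in 2i, against 9.88 to 9.89, and 9.56 in replicate C of control siRNA 1 in PD-only medium, against 9.63 to 9.64. Uqcrq was 11.39 in replicate B of control siRNA 1 in 2i, against 11.33 to 11.34, and 11.45 in replicate C of YAP/TAZ siRNA 2, against 11.51 to 11.52. Atp5j2 was 13.08 in replicate A of control siRNA 1 in PD-only medium, against 13.13 to 13.14. Cox6a1 was 14.20 in replicate C of YAP/TAZ siRNA 1, against 14.16 in the others. Atp5mpl was 12.00 in replicate D of YAP/TAZ siRNA 2, against 12.10 to 12.12. Cox7a2 was 13.36 in replicate C of YAP/TAZ siRNA 2, against 13.39. Sdhb was 11.77 in replicate B of YAP/TAZ siRNA 2, against 11.69 to 11.70. They fall on 8 arrays. Leaving out any of these arrays ended no call of a named gene in the comparisons with PD-only control, except that of Uqcrq with YAP/TAZ siRNA.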

How the results depend on the processing

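The direction of the members' median was kept in all 37 alternatives per comparison that give a median. The median of the members minus that of all genes ran from 0.05 to 0.07 for 2i against PD-only control, from 0.13 to 0.19 for YAP/TAZ siRNA against PD-only control, and from 0.05 to 0.08 for YAP/TAZ siRNA against 2i. Without each array in turn the members higher numbered 43 to 46, 63 to 67 and 41 to 47. Centring arrays on their median gave medians of 0.22, 0.36 and 0.10 (all genes 0.16, 0.20 and 0.03) and 3 and 1 members lower in the comparisons with PD-only control. Cyclic loess gave medians of 0.0751, 0.162 and 0.0521 (all genes 0.01, 0.01 and 0.00) and 8 lower with YAP/TAZ siRNA, and a further quantile normalisation 0.11 for 2i and 0.0651 for YAP/TAZ siRNA against 2i. With the Actb 3′ minus 5′ covariate 6 members were lower in 2i and 1 with YAP/TAZ siRNA, with 33 and 52 higher. The shares of all genes then were 20.4% lower in each, and 22.4% and 24.7% higher. A call of at least 0.25 left 16 higher and 3 lower (19 called) in 2i, 32 higher and 1 lower (33) with YAP/TAZ siRNA, and 13 higher and 1 lower (14) between these. With siRNA 2 of each kind alone, which leaves fewer arrays, 36 members were called in 2i (6 lower), the YAP/TAZ siRNA median was 0.20, and 28 were called against 2i (23 higher). The median was 0.12 in 2i without cross-hybridising probe sets, and with YAP/TAZ siRNA 0.19 over the mean of all probe sets, 0.18 without dim genes and 0.18 in genes with a mean of at least 10, the last chosen after seeing the data.

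Of named genes, 8 values reversed. Uqcrq in 2i became 0.0809 over the mean of its probe sets, 0.0479 without cross-hybridising probe sets and 0.0163 after centring, and with YAP/TAZ siRNA 0.00 (-0.0007) after cyclic loess. Centring turned Uqcr11 in 2i to 0.0325 and Ndufa7 in 2i to 0.0046. Atp5c1 with YAP/TAZ siRNA became -0.11 without cross-hybridising probe sets, and Atp5g2 against 2i became -0.0256 over the mean of its probe sets. The cause was not tested. Another 124 values of named genes kept their direction and lost the call, and 2723 were as reported. Leaving out 1 array ended a call for Uqcrq with YAP/TAZ siRNA (10 arrays), for Atp5g2 (16 arrays) and Sdhb (1 array) against 2i, and for Cox6a2 in 2i (1 array). The replicate letters as a block gave 43, 64 and 43 members higher and 11, 3 and 5 lower; among named genes it ended the calls of Uqcrq with YAP/TAZ siRNA and of Atp5g2 against 2i. Small differences of dim probe sets are limited by their low signal over background.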

Other observations

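Mitochondrial ribosomal proteins, which translate the subunits encoded by mitochondrial DNA, were more often higher with YAP/TAZ siRNA than in PD-only control: 53 of 76 rose and 7 fell (median 0.17), against 35.5% and 26.3% of all genes. In 2i 31 rose and 25 fell (median 0.02), against 31.3% and 26.7% of all genes, and between YAP/TAZ siRNA and 2i control 49 were higher and 8 lower (median 0.12), against 25.5% and 22.8%. Mrpl41 was higher by 0.62 ± 0.03 with YAP/TAZ siRNA and by 0.29 ± 0.04 in 2i, and Mrpl54 by 0.57 ± 0.04 with YAP/TAZ siRNA, against -0.02 ± 0.04 in 2i (not called). Mrpl23 was lower in both (-0.58 ± 0.03 and -0.17 ± 0.03). Of 17 genes of the citric acid cycle and pyruvate dehydrogenase, 12 rose and 3 fell with YAP/TAZ siRNA (median 0.12) and 8 rose and 5 fell in 2i (median 0.06). That is 70.6% higher and 17.6% lower with YAP/TAZ siRNA, and 47.1% and 29.4% in 2i, where the share lower was near the 26.7% of all genes. Ogdh, a subunit of 2-oxoglutarate dehydrogenase, was higher by 0.49 ± 0.04 with YAP/TAZ siRNA and gave 0.06 ± 0.04 in 2i (not called).

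Among 9 carriers, channels and uncoupling proteins, 5 rose and 0 fell with YAP/TAZ siRNA, against 35.5% and 26.3% of all genes. In 2i 1 rose and 3 fell, against 31.3% and 26.7%. The count of 0 is from limma at the adjusted p and was also 0 at an unadjusted p under 0.05. Slc25a4 and Slc25a31, which exchange ATP and ADP across the inner membrane, had the largest differences of the list in the comparisons with 2i. Slc25a4, the heart and muscle form, was lower in 2i (-0.63 ± 0.03), higher with YAP/TAZ siRNA (0.29 ± 0.03), and higher with YAP/TAZ siRNA than in 2i by 0.92 (adjusted p = 1.147e-16 in limma). Slc25a31, the testis form, gave -0.63 ± 0.05, 0.12 ± 0.05 and 0.74. These values are on the log2 scale of the same fit.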
